A study of Homo sapiens with 17 samples.

Results

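The genes described here are CXCL1, CXCL2, CXCL3, CXCL5, CXCL6 and CXCL8, the neutrophil-attracting CXC chemokines expressed from a cluster on chromosome 4. They were chosen by name, as 6 of 62754 gene rows in the count tables, and all 6 were among the 19473 genes whose counts were high enough to test. RNA was measured in IMR90 ER:RAS cells, human lung fibroblasts that carry a retroviral fusion of RAS with the estrogen receptor, so that 4-hydroxytamoxifen (4OHT) switches on oncogenic RAS and drives the cells into oncogene-induced senescence. The 5 DMSO siNT libraries came from cells given the solvent DMSO and a non-targeting siRNA, the 6 4OHT siNT libraries from 4OHT-treated cells with a non-targeting siRNA, and the 6 4OHT siSMARCA4 libraries from 4OHT-treated cells with an siRNA against SMARCA4, the ATPase of the SWI/SNF chromatin remodeling complex also known as BRG1. Every group carries the ER:RAS construct and a transfected siRNA. No group combines DMSO with siSMARCA4. How long after 4OHT or DMSO the RNA of these libraries was taken is not given in the sources used here.

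Each label also carries a number, 2 or 4, after the siRNA name and a tag ending in V or VM, and the labels do not say what V and VM mean, or whether siNT 2 and siNT 4 were different non-targeting siRNAs or controls run alongside the siSMARCA4 siRNA of that number. All 6 4OHT siNT libraries are VM, whereas 3 of 6 4OHT siSMARCA4 and 2 of 5 DMSO siNT libraries are V, so values are also given for VM libraries alone. The labels do not say that replicates came from separate cultures, and p-values then measure only the spread between these libraries. Library totals ran from 39109479 to 68978119 counts. SMARCA4 itself was at 268 ± 13.2 CPM (counts scaled to library depth; SD, n = 6) in 4OHT siNT and 88.0 ± 22.8 CPM (n = 6) in 4OHT siSMARCA4, below every 4OHT siNT library in all 6 (edgeR log2 fold change -1.61, SE 0.13, adjusted p = 5.14e-07). The 10 fibroblast markers summed to between 25081 and 29986 CPM in DMSO siNT, between 17281 and 23388 CPM in 4OHT siNT and between 11103 and 14994 CPM in 4OHT siSMARCA4. Of them 7 were called lower and 1 higher in 4OHT siNT than in DMSO siNT, where 54.4% of all tested genes were called in either direction. In 4OHT siSMARCA4 against 4OHT siNT 7 of 10 were called lower, with log2 fold changes below 0 for all 10, where 13.8% of all tested genes were called lower. The 8 leukocyte markers summed to at most 0.497 CPM, with CSF3R, CD3E and MS4A1 without a count in DMSO siNT and 4OHT siNT. The 5 epithelial markers summed to at most 1.29 CPM, and the 4 endothelial markers to between 0.855 and 1.95 CPM in DMSO siNT, between 3.95 and 5.94 CPM in 4OHT siNT and between 2.05 and 4.46 CPM in 4OHT siSMARCA4. The part of these shifts in the results below was not tested. In bulk RNA, fewer cells making a transcript and less of it in each cell cannot be told apart.

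All 6 encode small secreted proteins with a glutamate-leucine-arginine (ELR) motif ahead of the first cysteines. They bind CXCR2, and CXCL8 and CXCL6 also bind CXCR1, to draw neutrophils out of the blood, while ACKR1 on red cells and venules takes them up without signalling. In fibroblasts they are induced by interleukin-1 and TNF through NF-κB, their messages are cleared by AU-rich element decay, and they are well-known parts of the senescence-associated secretory phenotype (SASP). CXCL8 encodes interleukin-8 (IL-8).

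On GRCh38 the genes lie along chromosome 4 in the order CXCL8 (chr4:73740519-73743716, plus strand), CXCL6 (chr4:73836640-73849064, plus), CXCL1 (chr4:73869393-73871308, plus), CXCL5 (chr4:73995642-73998677, minus), CXCL3 (chr4:74036589-74038807, minus) and CXCL2 (chr4:74097040-74099196, minus), a span of 359 kb. Their Ensembl identifiers in the tables are ENSG00000169429, ENSG00000124875, ENSG00000163739, ENSG00000163735, ENSG00000163734 and ENSG00000081041, in the same order. The stretches below, from RefSeq promoters on GRCh38.p14, are shown because NF-κB is a known inducer of the family. Whether NF-κB had a part in the changes described below was not tested. Each runs 5′ to 3′ on the gene's own strand from 140 to 21 bases before the RefSeq start, with the match to an NF-κB core (and, where the longer NF-κB consensus matches on both strands, the bases of both matches) in capitals.
CXCL8 (chr4:73740429-73740548, plus strand): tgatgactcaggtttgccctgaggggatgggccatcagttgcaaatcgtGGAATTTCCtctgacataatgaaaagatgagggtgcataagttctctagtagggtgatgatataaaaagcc
CXCL6 (chr4:73836538-73836657, plus strand): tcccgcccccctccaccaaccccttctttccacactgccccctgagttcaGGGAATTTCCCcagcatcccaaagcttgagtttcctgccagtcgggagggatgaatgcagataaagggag
CXCL1 (chr4:73869253-73869372, plus strand): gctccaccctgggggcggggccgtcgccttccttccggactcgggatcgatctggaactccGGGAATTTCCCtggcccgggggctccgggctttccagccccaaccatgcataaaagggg
CXCL5 (chr4:73998698-73998817, minus strand): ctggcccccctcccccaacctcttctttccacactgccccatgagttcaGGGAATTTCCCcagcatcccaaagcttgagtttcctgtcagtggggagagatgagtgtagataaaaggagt
CXCL3 (chr4:74038710-74038829, minus strand): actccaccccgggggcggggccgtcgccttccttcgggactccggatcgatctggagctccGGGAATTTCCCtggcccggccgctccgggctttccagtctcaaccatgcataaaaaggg
CXCL2 (chr4:74099216-74099335, minus strand): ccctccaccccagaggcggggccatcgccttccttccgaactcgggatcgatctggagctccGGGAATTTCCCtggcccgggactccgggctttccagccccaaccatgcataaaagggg

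The core GGAATTTCC, searched on both strands in the 250 bases before the start, was present in 6 of 6 members and in 0.413% of 35116 RefSeq promoters. It is a fixed string that every member holds, and whether it was chosen without sight of these promoters is not stated. The 6 of 6 and the 0.413% are therefore a description and not a test. Some of the members' promoters are also closely alike, as given below, so matches in different members are not independent. The longer NF-κB consensus, searched by name on both strands and overlapping the core, was present in 5 of 6 members, the exception being CXCL8, and in 5.21% of promoters. CXCL8 also held the AP-1 motif TGANTCA, 137 to 131 bases before its start, and TATAAA, 31 to 26 bases before it. These were found in 6.57% and 10.7% of all promoters. Of the members, CXCL2 alone held an exact match to the C/EBP motif TTNNGNAA, which 33.2% of promoters contain. Sites that differ from that string by a letter were not searched. Over the 250 bases before the start, CXCL5 and CXCL6 were 85.3% identical and CXCL1 and CXCL3 81.4%, whereas CXCL8 was 42.3% to 46.2% identical to the others. The matches are letters in a window and no factor was measured there.

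The transcripts are also alike, CXCL1 and CXCL2 being 88.7% and CXCL5 and CXCL6 79.8% identical over their aligned stretches. Of 50-base windows, 5.33% of CXCL1, 10.1% of CXCL2 and 5.26% of CXCL3 recur exactly in another of these 3 transcripts, and 0 of 6 members share a 110-base window, the read length, with any other gene. Because reads matching several places were divided between them by the counting tool, a part of the counts of CXCL1, CXCL2 and CXCL3 is uncertain, and so is a part of those of CXCL5, which shares 1.17% of its 50-base windows with GLYR1.

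In DMSO siNT cells every member was low, at 5.48 CPM or less in each library. CXCL8 was at 5.48, 3.82, 2.70, 3.68 and 4.86 CPM in the libraries 2-1V, 2-2V, 2-2VM, 4-2VM and 4-3VM. CXCL2 followed with 1.95, 0.915, 0.208, 0.987 and 1.19 CPM in the same order. The 4 others stayed below 1 CPM in every DMSO siNT library. CXCL6 was the lowest, with 1 to 12 counts per library and 0.0931 ± 0.0747 CPM (n = 5), where 3 counts correspond to 0.0503 to 0.0645 CPM. The 2 V libraries held the 2 highest values of CXCL1 (0.960 and 0.497 CPM against 0.139 to 0.302 CPM in VM) and of CXCL3 (0.506 and 0.497 CPM against 0.156 to 0.252 CPM).

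**Figure D1:**
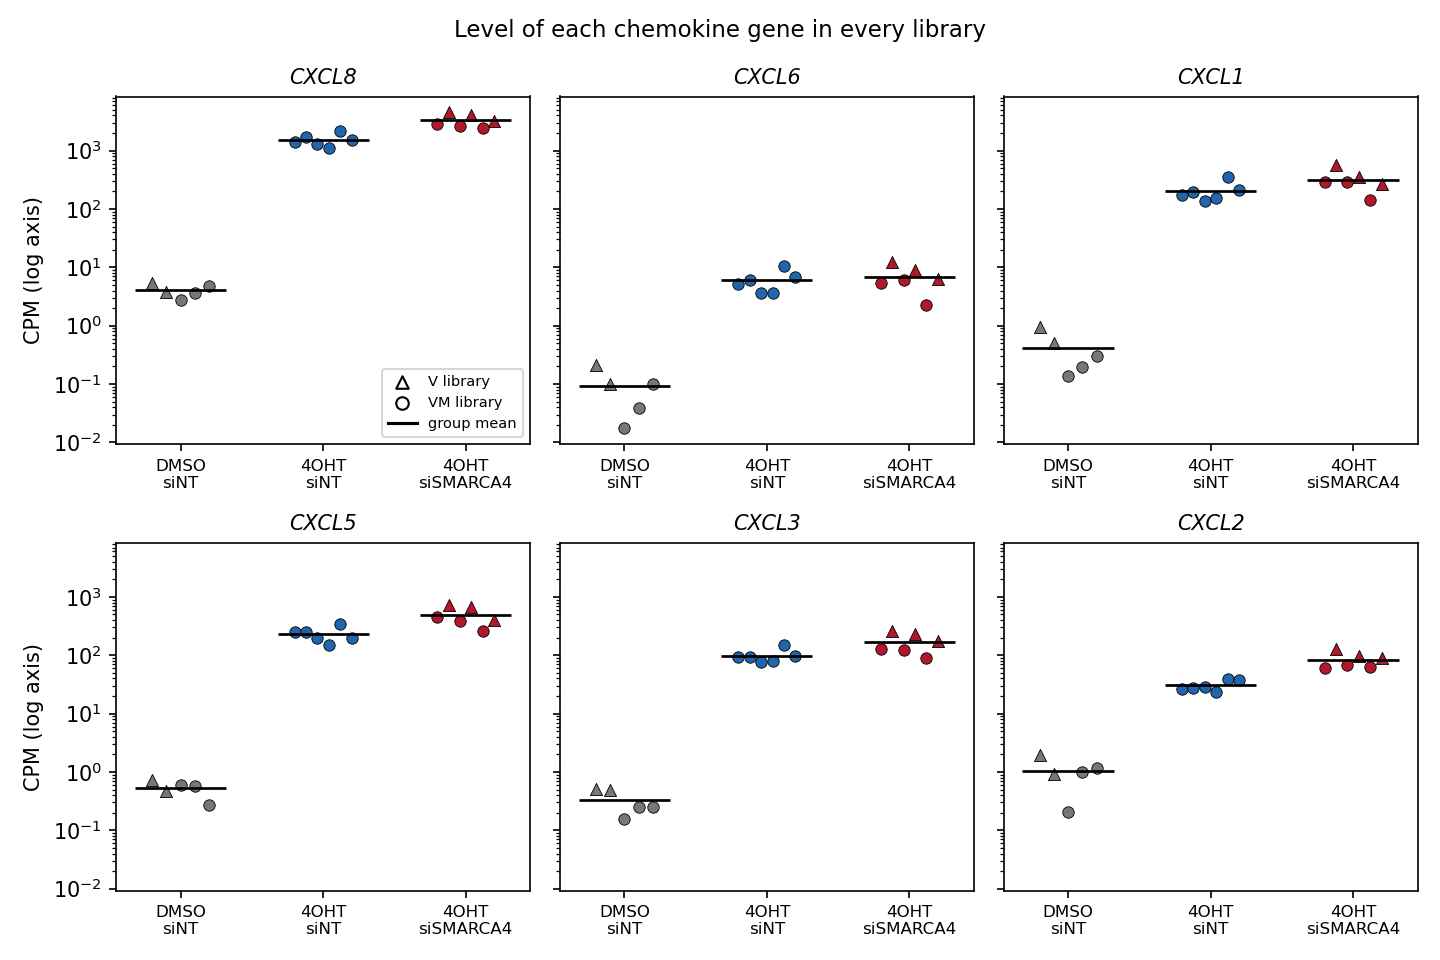
CPM of each gene on a log axis (TMM-scaled library sizes) in the 5 DMSO siNT, 6 4OHT siNT and 6 4OHT siSMARCA4 libraries; triangles are V libraries, circles VM libraries and lines group means. CXCL8 moves from 2.70 to 5.48 CPM in DMSO siNT to between 1130.0 and 2137 CPM in 4OHT siNT and between 2403 and 4531 CPM in 4OHT siSMARCA4.

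To ask how RAS-induced senescence changed the cluster, 4OHT siNT was compared with DMSO siNT. All 6 genes rose, and for all 6 the lowest 4OHT siNT library was above the highest DMSO siNT library. For comparison, 27% of all tested genes were called higher and 19.3% were called higher without overlap, and 54.4% were called in either direction. The median log2 fold change of the 6 was 8.38, against 0.0038 over all genes tested.

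CXCL8, the most abundant, reached a lowest value of 1130.0, a median of 1484 and a highest value of 2137 CPM (log2 change of 8.55 with SE 0.28, adjusted p = 4.83e-14 by edgeR). CXCL1, whose product was first known as a melanoma growth factor, had a lowest of 139.6, a median of 187 and a highest of 352 CPM (8.92, SE 0.48, adjusted p = 2.19e-11 by edgeR). CXCL5 had a lowest of 151, a median of 226 and a highest of 344 CPM (8.77, SE 0.36, adjusted p = 7.58e-13 by edgeR). No 4OHT siNT library came near a DMSO siNT library for these genes.

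CXCL3 had a lowest of 77.2, a median of 92.9 and a highest of 149 CPM (log2 change of 8.21 with SE 0.38, adjusted p = 2.99e-12 by edgeR). CXCL2 rose less, to a lowest of 23.1, a median of 28.2 and a highest of 39.3 CPM (4.85, SE 0.35, adjusted p = 1.04e-09 by edgeR). CXCL6 ran from 3.64 to 10.7 CPM with a median of 5.62 (5.97, SE 0.53, adjusted p = 1.99e-08 by edgeR), and rests on 26 counts in DMSO siNT. CXCL2 thus had the smallest log2 fold change of the 6, while the order of CXCL1 and the others changed with the libraries used. With VM libraries alone the log2 fold changes were 9.86 (SE 0.51) for CXCL1, 8.89 (SE 0.40) for CXCL5, 8.77 (SE 0.33) for CXCL3, 8.65 (SE 0.31) for CXCL8, 6.73 (SE 0.63) for CXCL6 and 5.22 (SE 0.37) for CXCL2, and in the number 2 libraries CXCL5 (8.55) was above CXCL1 (8.29). These 6 calls held under every alternative tried, and the log2 fold changes ranged from 8.29 to 9.86 for CXCL1, 5.45 to 6.84 for CXCL6, 7.80 to 8.78 for CXCL3, 4.55 to 5.38 for CXCL2, 8.55 to 9.14 for CXCL5 and 8.41 to 8.82 for CXCL8.

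Per kilobase of exon, which allows genes to be compared, the order of levels in 4OHT siNT was CXCL8 (597 ± 138), CXCL1 (150.3 ± 56.2), CXCL5 (95.7 ± 27.3), CXCL3 (44.3 ± 11.8), CXCL2 (21.7 ± 4.56) and CXCL6 (2.95 ± 1.29 CPM per kb; SD, n = 6). That order held in each of the 6 libraries, although the ranges of CXCL1 and CXCL5 and of CXCL5 and CXCL3 overlapped. The place of CXCL3 depends on the length used, here that of all exons merged. Per kilobase of the longest protein-coding transcript, a choice made after the data had been seen, CXCL5 was at 95.7 ± 27.3 and CXCL3 at 91.4 ± 24.4 CPM per kb, and CXCL3 was the higher in 2 of 6 libraries. In DMSO siNT the order per kilobase of merged exons was CXCL8, CXCL2, CXCL1, CXCL5, CXCL3 and CXCL6, and the ranges of all neighbours overlapped. By transcript length the DMSO siNT mean of CXCL3 (0.309) was above that of CXCL5 (0.219 CPM per kb). In 4OHT siSMARCA4 CXCL8 stood at 1275 ± 325 CPM per kb of merged exons and the order of the means was that of 4OHT siNT. CXCL1 was above CXCL5 in only 4 of 6 libraries and CXCL3 above CXCL2 in 5 of 6. Ranges overlapped for CXCL1 and CXCL5, CXCL5 and CXCL3, and CXCL3 and CXCL2. By transcript length CXCL1 was above CXCL5, and CXCL3 above CXCL2, in 6 of 6 of these libraries. The 6 genes together took up 0.000683% ± 0.000231 of all counts in DMSO siNT, 0.205% ± 0.0485 in 4OHT siNT and 0.433% ± 0.119 in 4OHT siSMARCA4. CXCL8 made up 73.2% ± 1.65 of that sum in 4OHT siNT and 76.3% ± 2.71 in 4OHT siSMARCA4.

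Next, 4OHT siSMARCA4 was compared with 4OHT siNT to ask what SMARCA4 knockdown did to the chemokines of 4OHT-treated cells. CXCL8, CXCL2, CXCL5 and CXCL3 rose, though the call of CXCL3 was lost with VM libraries alone, and CXCL1 and CXCL6 did not pass the test. Thus 4 of 6 members were called higher, where 10.4% of all tested genes were (24.2% were called in either direction), and 2 of 6, CXCL8 and CXCL2, were called without overlap of the libraries, where 4.25% of genes were. The median log2 fold change of the 6 was 0.91, against -0.024 over all genes tested.

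CXCL2 rose the most. Its 4OHT siSMARCA4 libraries had a lowest value of 61.3, a median of 77.7 and a highest of 130.01 CPM, all above the highest 4OHT siNT library at 39.3 CPM. The log2 fold change was 1.47 (SE 0.26, adjusted p = 0.000612 by edgeR).

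CXCL8 went from a median of 1484 to a lowest of 2403, a median of 3028 and a highest of 4531 CPM, again above every 4OHT siNT library (log2 change of 1.09 with SE 0.18, adjusted p = 0.000388 by edgeR). IL-8 protein was a readout of the siRNA screens from which SMARCA4 was taken, so the direction of CXCL8 is not independent of the choice of SMARCA4. CXCL5 had a lowest of 263, a median of 428 and a highest of 717 CPM, with 5 of 6 libraries above the 4OHT siNT maximum of 344 CPM (1.06, SE 0.23, adjusted p = 0.00264 by edgeR). The groups overlapped for CXCL5 through 1 library, 4-2VM.

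CXCL3 had a lowest of 88.3, a median of 149 and a highest of 262 CPM, with 3 of 6 libraries above the 4OHT siNT maximum (log2 change of 0.76 with SE 0.23, adjusted p = 0.0244 by edgeR). CXCL1 had a lowest of 144, a median of 286 and a highest of 556 CPM (0.62, SE 0.29, adjusted p = 0.134 by edgeR), and only 1 of 6 libraries passed the 4OHT siNT maximum of 352 CPM. CXCL6 had a lowest of 2.23, a median of 6.18 and a highest of 12.2 CPM (0.19, SE 0.34, adjusted p = 0.737 by edgeR). For CXCL1 and CXCL6 the groups overlapped widely.

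The letters V and VM moved with these levels. Within 4OHT siSMARCA4 the 3 V libraries were at 173 to 262 CPM of CXCL3 and the 3 VM libraries at 88.3 to 126 CPM, and there was no overlap either for CXCL2 (88.0 to 130.01 against 61.3 to 67.5 CPM), CXCL6 (6.26 to 12.2 against 2.23 to 6.10 CPM) or CXCL8 (3153 to 4531 against 2403 to 2904 CPM). CXCL1 and CXCL5 overlapped. The share of all genes without overlap between V and VM was not counted, so these separations are a description only. In a fit with a term for the letters, added after the data had been seen, CXCL3 was 1.02 higher in V on the log2 scale (SE 0.19, adjusted p = 0.0129 by edgeR), the only member called, where 1.25% of genes were called higher in V. The other members had V minus VM differences of 0.46 to 1.08 with edgeR adjusted p from 0.106 to 0.164. What the letters stand for was not tested.

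With VM libraries alone (3 against 6), CXCL2, CXCL8 and CXCL5 were still called, with log2 fold changes of 1.09, 0.80 and 0.67 (edgeR adjusted p = 0.00563, 0.00684 and 0.0404). That fit called 5303 of all 19678 genes it tested, in either direction. The VM libraries of CXCL2 and CXCL8 did not overlap between the groups, and the share of all genes without overlap was not counted there. CXCL3 was at 0.20 (adjusted p = 0.449 by edgeR) and CXCL1 at 0.24 (0.553), and CXCL6 turned to -0.38 (0.489). With the letters as a covariate the values were 1.05, 0.84 and 0.70 for CXCL2, CXCL8 and CXCL5, all called, and 0.17, 0.13 and -0.44 for CXCL3, CXCL1 and CXCL6, none called. The fit with the covariate called 5340 of all 19473 genes, in either direction. The call of CXCL3 was also lost when any 1 of 3 libraries was left out, at adjusted p = 0.0556 by edgeR without 4OHT siNT 4-1VM, 0.0723 without 4OHT siSMARCA4 2-3V and 0.0512 without 4OHT siSMARCA4 4-2V. CXCL1 gained a call only when 4OHT siNT 4-2VM was left out (0.84, adjusted p = 0.0449 by edgeR) or with the number 2 libraries alone (1.17, adjusted p = 0.0238 by edgeR).

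**Figure D2:**
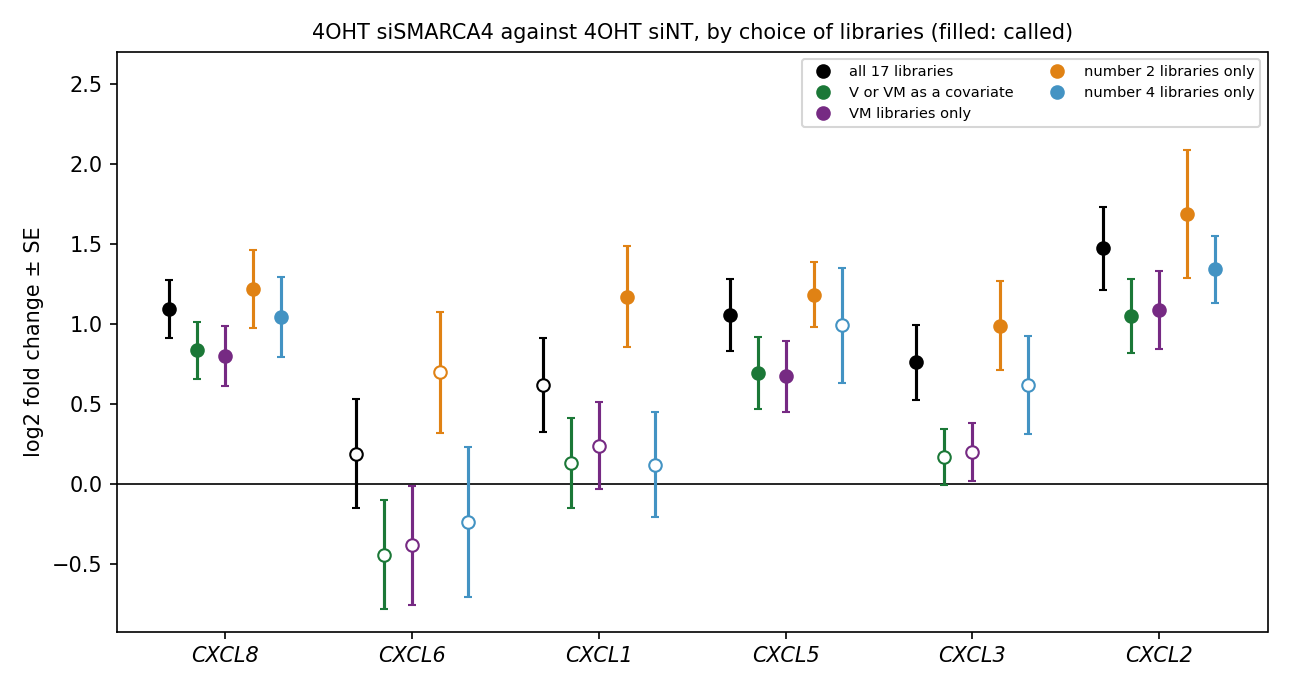
Log2 fold change ± SE of each gene, 4OHT siSMARCA4 against 4OHT siNT, in the fit of all 17 libraries and in 4 other choices of libraries or covariates; filled points passed an adjusted p of 0.05. CXCL8 and CXCL2 are filled throughout, and CXCL6 lies on both sides of 0.

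The number in the label, 2 or 4, gave a second way to divide the knockdown. With number 2, CXCL1 was 1.13 higher on the log2 scale in 4OHT siSMARCA4 than in 4OHT siNT (SE 0.38, adjusted p = 0.0476 by edgeR), and with number 4 it was 0.089 higher (SE 0.37, adjusted p = 0.902 by edgeR). CXCL6 was at 0.66 (SE 0.48) with number 2 and -0.27 (SE 0.48) with number 4. CXCL8 was at 1.18 (SE 0.28) and 1.01 (SE 0.27) and CXCL2 at 1.65 (SE 0.38) and 1.31 (SE 0.37), called with both numbers. CXCL5 was called with number 2 (1.15, SE 0.33, adjusted p = 0.024 by edgeR) and just missed with number 4 (0.96, SE 0.33, adjusted p = 0.0602 by edgeR), and CXCL3 was called with neither in this fit (0.95 and 0.58, adjusted p = 0.062 and 0.26 by edgeR), though it was called when the number 2 libraries were fitted alone (0.99, adjusted p = 0.0284 by edgeR). The fit of the number 2 libraries alone called 4479 of all 19588 genes. In the fit of both numbers the share of genes called with each number was not counted. The difference between the numbers was 1.04 for CXCL1 (SE 0.53, adjusted p = 0.365 by edgeR) and smaller for the others in the fit of both numbers. In edgeR's test of that difference 0 of 6 members were called, where 1.06% of all genes were. In the same fit 0 of 6 had a raw p below 0.05 (another tool was not tried), where 3009 of all 19473 genes did. With V or VM as a covariate, added after the data had been seen, the CXCL1 difference was 1.43 (SE 0.37, adjusted p = 0.0685 by edgeR) and that of CXCL6 1.53 (SE 0.49, adjusted p = 0.13 by edgeR), with CXCL3 at 0.76 (SE 0.25, adjusted p = 0.149 by edgeR).

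4OHT siSMARCA4 was also set against DMSO siNT, a comparison that shares its libraries with both others. All 6 members were higher without overlap, where 26.5% of genes were called higher and 16.4% without overlap. The log2 fold changes were 9.65 (SE 0.29) for CXCL8, 9.82 (SE 0.38) for CXCL5, 9.54 (SE 0.49) for CXCL1, 8.97 (SE 0.39) for CXCL3, 6.32 (SE 0.36) for CXCL2 and 6.16 (SE 0.53) for CXCL6.

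Because the members differed in how far they moved, each was also expressed as a log2 ratio to CXCL8. Counts of the same library were used without scaling, with a pseudocount of 2, which weighs more where counts are few. Exact two-sided permutation tests were run on 5 ratios in 2 comparisons and adjusted over the 10. From DMSO siNT to 4OHT siNT the ratio of CXCL2 to CXCL8 fell by 3.50, from -2.17 ± 0.77 (SD, n = 5) to -5.66 ± 0.21 (n = 6), with no overlap (exact p = 0.00216, adjusted p = 0.00722). The ratio of CXCL6 to CXCL8 fell by 2.91, from -5.16 ± 0.52 to -8.07 ± 0.29, also without overlap (exact p = 0.00216, adjusted p = 0.00722). Here 0.00216 is the smallest p that 6 against 5 libraries can give. CXCL6 had 1 to 12 counts per DMSO siNT library, so the pseudocount moves its DMSO siNT ratios. Over the alternatives its difference ranged from -3.23 to -2.44, and the edgeR log2 fold changes were 5.97 for CXCL6 and 8.55 for CXCL8. The ratios of CXCL1, CXCL3 and CXCL5 differed by 0.48, -0.42 and 0.14 and did not pass (exact permutation test, adjusted p = 0.192, 0.0835 and 0.708). The CXCL1 ratio rested on the libraries used, passing with VM libraries alone (0.99, exact permutation adjusted p = 0.0198) and without DMSO siNT 2-1V (0.72, exact permutation adjusted p = 0.0476), at -0.023 within the number 2 and 1.14 within the number 4 libraries, sets too small to pass. The CXCL3 ratio passed without DMSO siNT 4-3VM (-0.55, exact permutation adjusted p = 0.0204) and differed by -0.73 within number 2 and 0.011 within number 4 libraries.

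Between 4OHT siNT and 4OHT siSMARCA4 the members again moved unequally. The ratio of CXCL6 to CXCL8 was lower by 0.97 in 4OHT siSMARCA4, at -9.04 ± 0.53 against -8.07 ± 0.29 (n = 6 each), with no overlap of the libraries (exact p = 0.00216, adjusted p = 0.00722). The ratio of CXCL1 was lower by 0.51 (exact permutation adjusted p = 0.0216) and that of CXCL3 by 0.39 (exact permutation adjusted p = 0.0216). CXCL2 went the other way, higher by 0.36 (exact permutation adjusted p = 0.0216). The ratio of CXCL5 differed by -0.067 (exact permutation adjusted p = 0.637).

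Among VM libraries alone the ratio differences were -1.23 for CXCL6, -0.59 for CXCL1 and -0.61 for CXCL3 (exact permutation adjusted p = 0.0198 for each), and 0.29 for CXCL2 (adjusted p = 0.136). The CXCL1 ratio differed by -0.078 within the number 2 libraries and by -0.94 within the number 4 libraries, where 3 against 3 libraries cannot reach an exact p below 0.1. Dividing by CXCL8 in each library means that the 5 ratios share its values.

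**Figure D3:**
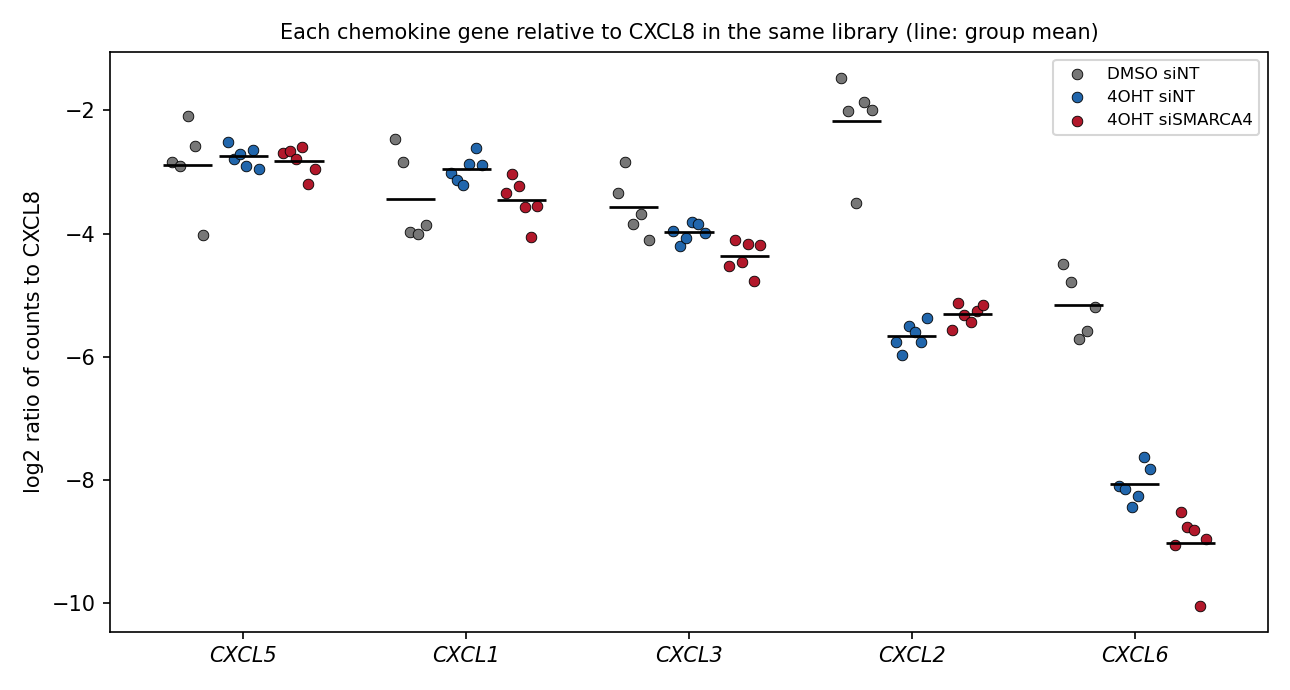
Log2 ratio of the counts of each gene to those of CXCL8 in the same library; points are libraries coloured by group and lines are group means. The group means of CXCL5 lie close together, with DMSO siNT libraries spread from -4.02 to -2.09, while CXCL2 and CXCL6 lie lower in 4OHT siNT than in DMSO siNT, and CXCL6 is lower again in 4OHT siSMARCA4.

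The surrounding genes give the members a local context. Within 500 kb of the cluster 40 genes are annotated, of which 34 are not members, 11 of these without a count in any library and 7 with enough counts to test. The other CXC ligands at the locus were barely read. PPBP, which encodes a platelet chemokine with an ELR motif, had 0, 6 and 8 counts summed over the DMSO siNT, 4OHT siNT and 4OHT siSMARCA4 libraries, PF4 had 0, 25 and 25, and PF4V1 had 1, 32 and 30, and none passed the filter. They lie between CXCL6 and CXCL5 without following the members to high levels.

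The long noncoding RNA ENSG00000287037 starts on the opposite strand within CXCL5. It had 2, 0, 0, 0 and 0 counts in the DMSO siNT libraries, 14 to 563 counts in 4OHT siNT and 109 to 454 in 4OHT siSMARCA4. The CPM ratio of 4OHT siNT to DMSO siNT was 559.8 with an exact 95% counting interval of 155 to 4628, and the knockdown difference was 0.38 (SE 0.57, adjusted p = 0.688 by edgeR). Its level in 4OHT siNT ranged from 0.366 to 10.2 CPM, over which CXCL5 ranged from 151 to 344 CPM.

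Beyond CXCL2, MTHFD2L, a mitochondrial folate enzyme, rose by 1.06 in 4OHT siNT over DMSO siNT (SE 0.15, adjusted p = 6.38e-06 by edgeR). EREG and AREG, which encode the growth factors epiregulin and amphiregulin, rose from 20.9 ± 2.17 to 274 ± 42.6 CPM (log2 change of 3.71 with SE 0.11, adjusted p = 2.21e-14 by edgeR) and from 3.19 ± 1.49 to 295 ± 35.9 CPM (6.52, SE 0.29, adjusted p = 1.56e-12 by edgeR). On knockdown EREG rose by 0.33 (SE 0.093, adjusted p = 0.0155 by edgeR) and AREG differed by -0.28 (SE 0.20, adjusted p = 0.346 by edgeR). On the other side of CXCL8, AFP, encoding alpha-fetoprotein, was lower in 4OHT siNT by 0.85 (SE 0.24, adjusted p = 0.00488 by edgeR) and ANKRD17, encoding an ankyrin repeat protein, higher by 0.41 (SE 0.095, adjusted p = 0.00126 by edgeR). With VM libraries alone EREG was at 0.28 (adjusted p = 0.088 by edgeR) and AREG at -0.51 (adjusted p = 0.0343 by edgeR). Neither AFP nor ANKRD17 was called on knockdown, and nor were MTHFD2L or the long noncoding RNA ENSG00000269559.

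**Figure D4:**
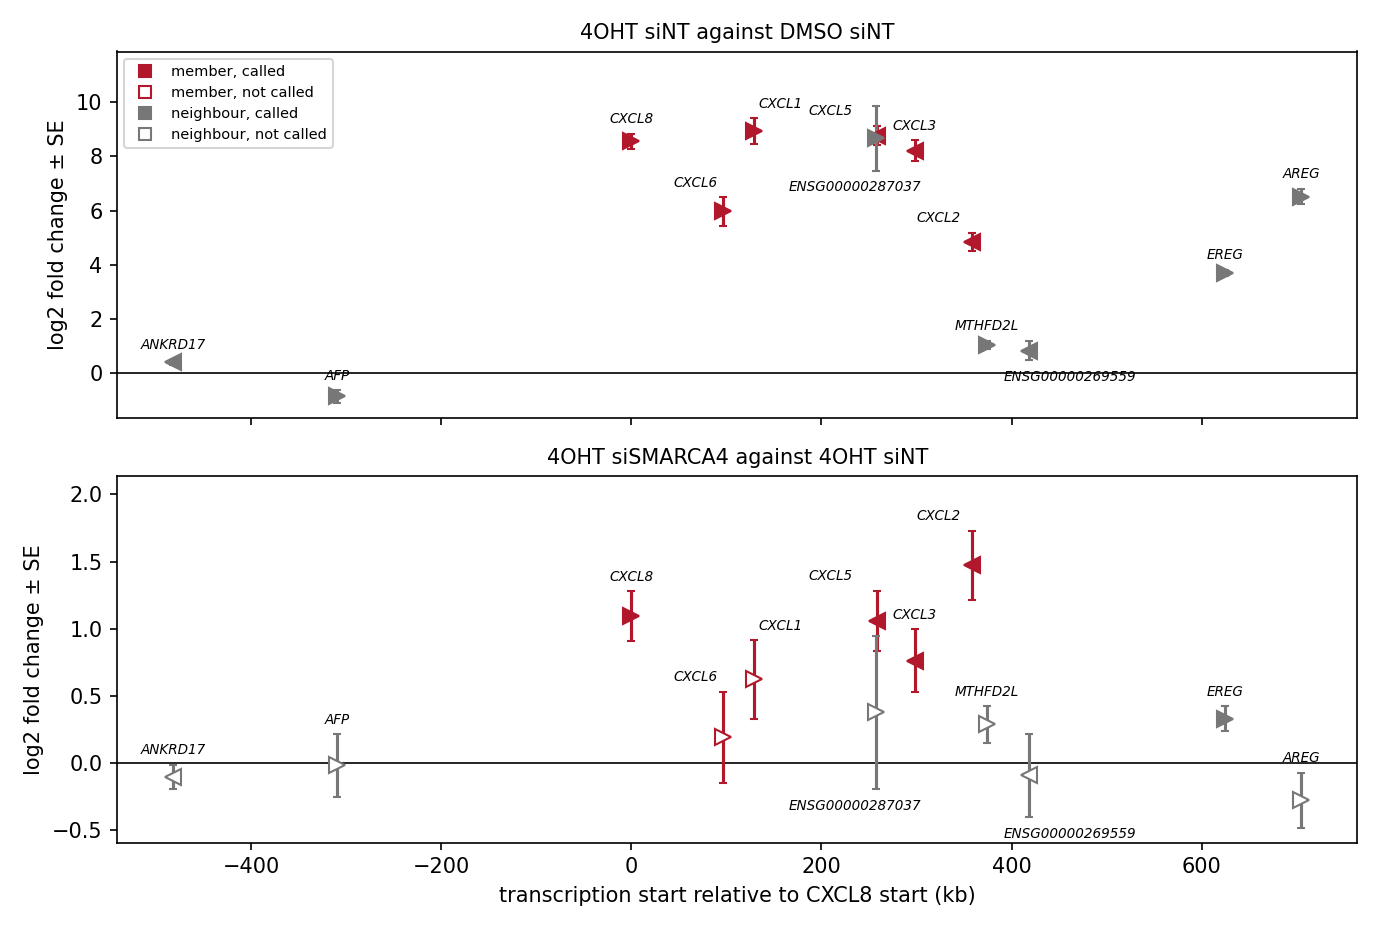
Log2 fold change ± SE of every tested gene within 500 kb of the cluster, placed by the distance of its transcription start from that of CXCL8 in kb; triangles point along the strand, the 6 chemokine genes are red, other genes grey, and filled symbols passed an adjusted p of 0.05. In the upper panel (4OHT siNT against DMSO siNT) the red symbols lie between 4.85 and 8.92; in the lower panel (4OHT siSMARCA4 against 4OHT siNT) EREG is the only filled grey symbol.

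Counts in repeat elements of the same window, outside the members' exons, rose from 5.80 ± 0.991 CPM in DMSO siNT (n = 5) to 18.1 ± 1.15 CPM in 4OHT siNT (n = 6), a log2 difference of 1.65 with no overlap (exact permutation p = 0.00216, adjusted over 2 tests p = 0.00433). In 4OHT siSMARCA4 they were at 18.1 ± 5.17 CPM (log2 difference -0.045, exact permutation p = 0.825). Within VM libraries alone they were lower by 0.35 on the log2 scale in 4OHT siSMARCA4 (exact permutation adjusted p = 0.0238). The sum rests on few of the 1824 loci. The locus with the most counts, an L1PA3 copy in MTHFD2L (chr4:74245482-74250230), had 414, 817 and 543 counts summed over DMSO siNT, 4OHT siNT and 4OHT siSMARCA4 and held 13.6% of the counts in the window, and an MLT1H copy in the same gene (chr4:74278452-74278778) had 255, 643 and 581. An MIR copy inside CXCL2 but outside its exons (chr4:74098037-74098229) had 16, 746 and 792 counts, and an L1MEd copy just past the end of CXCL8 (chr4:73744112-73744481) had 4, 493 and 808.

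The receptors of these chemokines were almost unread in the fibroblasts. CXCR1 had 0 counts in all 17 libraries, which allows up to 3 counts in each, or 0.0435 to 0.0767 CPM. CXCR2 had 2, 4 and 1 counts summed over DMSO siNT, 4OHT siNT and 4OHT siSMARCA4, and ACKR1 had 0, 0 and 1.

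Other chemokines and regulators were read beside the members, and their counts of calls on knockdown stand against 10.4% of all tested genes called higher and 13.8% called lower. Of 7 CXC chemokines without an ELR motif, 4 were tested and on knockdown 2 were called higher and none lower, with a median log2 fold change of 0.83. CXCL10, a T and NK cell attractant, rose from 7.43 ± 0.832 to 38.7 ± 9.95 CPM (log2 change of 2.38 with SE 0.31, adjusted p = 5.33e-05 by edgeR), and CXCL16 rose from 0.125 ± 0.0494 to 0.283 ± 0.0924 CPM (1.16, SE 0.39, adjusted p = 0.0352 by edgeR). Of 11 CC chemokines, 5 were tested and 1 was called higher, with a median of 0.061. That was CCL20, an attractant of CCR6-bearing lymphocytes, from 18.7 ± 4.15 to 38.0 ± 20.6 CPM (1.02, SE 0.29, adjusted p = 0.0168 by edgeR). With VM libraries alone CXCL10 was at 2.31 and called, while CCL20 was at 0.12 (adjusted p = 0.718 by edgeR) and CXCL16 at 1.03 (0.076). In those libraries no CC gene was called higher by edgeR and 2 were called lower, CCL2, a monocyte attractant (-0.32, adjusted p = 0.0216 by edgeR, against 0.66 with all libraries, not called), and CCL3 (-1.91, adjusted p = 0.00164 by edgeR), both named after their values were seen. The fit of VM libraries alone called 5303 of all 19678 genes it tested, in either direction. In 4OHT siNT over DMSO siNT, where 27% of all tested genes were called higher, 2 of the 4 tested CXC genes were called higher and 2 lower, and 4 of the 5 tested CC genes were called higher. The median log2 fold changes were 0.14 for these CXC and 1.79 for these CC genes. CCL20, picked after its values were seen, was at 10.5 (SE 0.67), above every member, from 3 counts in DMSO siNT.

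Of 16 inducing cytokines and receptors, 12 were tested, and on knockdown 2 were called higher and 3 lower (median -0.10), beside 10.4% and 13.8% of all tested genes. IL1R1, the signalling receptor for interleukin-1, rose from 48.2 ± 3.90 to 90.1 ± 25.0 CPM (log2 change of 0.90 with SE 0.17, adjusted p = 0.000974 by edgeR). IL1A, its ligand, rose from 57.5 ± 10.2 to 84.1 ± 27.3 CPM (0.55, SE 0.18, adjusted p = 0.0366 by edgeR), and was not called with VM libraries alone (0.11, adjusted p = 0.61 by edgeR). TLR2, a pattern recognition receptor read at a low level, fell from 0.791 ± 0.239 to 0.273 ± 0.238 CPM (log2 change of -1.50 with SE 0.50, adjusted p = 0.0356 by edgeR). The adaptor MYD88 fell by 0.46 as a log2 change (SE 0.11, adjusted p = 0.00729 by edgeR). With VM libraries alone IL1R1 was at 1.24, TLR2 at -3.27 and MYD88 at -0.69, all called. In those libraries 13 of the list were tested, with 1 called higher and 6 lower, where that fit called 5303 of all 19678 genes, among them IL1B, another interleukin-1 ligand named after its values were seen, at -0.69 (adjusted p = 0.00723 by edgeR) against 0.17 with all libraries (adjusted p = 0.723 by edgeR). In 4OHT siNT over DMSO siNT, 6 of the 12 tested were called higher and 2 lower (median 0.39), where 27% of all tested genes were called higher. IL1B was at 10.1 (SE 0.48) and IL1A at 9.02 (SE 0.33) there, rises as large as those of the members.

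Of 15 transcription factors and NF-κB feedback genes, all were tested, and on knockdown 6 were called higher and 1 lower (median 0.28), beside 10.4% and 13.8% of all tested genes. CEBPD, a C/EBP factor induced in inflammation, rose from 28.3 ± 7.37 to 56.7 ± 12.2 CPM (log2 change of 1.00 with SE 0.21, adjusted p = 0.00211 by edgeR). The NF-κB subunit genes REL and RELB rose by 0.64 (SE 0.17, adjusted p = 0.01 by edgeR) and 0.52 (SE 0.14, adjusted p = 0.0108 by edgeR), and NFKBIZ, an NF-κB cofactor, rose by 0.44 (SE 0.14, adjusted p = 0.0241 by edgeR). With VM libraries alone CEBPD (1.15) and RELB (0.65) were called, and REL (0.48, adjusted p = 0.0772 by edgeR) and NFKBIZ (0.17, adjusted p = 0.294 by edgeR) were not. In 4OHT siNT over DMSO siNT, 11 of the 15 were called higher and 1 lower, against 27% and, in either direction, 54.4% of all tested genes.

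Of 8 regulators of chemokine mRNA decay, all tested, none was called higher on knockdown by edgeR and 2 were lower (median -0.055), where 13.8% of all tested genes were called lower. ZFP36, which encodes the AU-rich element binding protein tristetraprolin, fell from 27.7 ± 4.31 to 19.0 ± 4.50 CPM (log2 change of -0.54 with SE 0.17, adjusted p = 0.0246 by edgeR), and its relative ZFP36L1 from 153 ± 9.70 to 124 ± 22.2 CPM (-0.30, SE 0.10, adjusted p = 0.0395 by edgeR). Both were called with VM libraries alone, at -0.75 and -0.38.

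**Figure D5:**
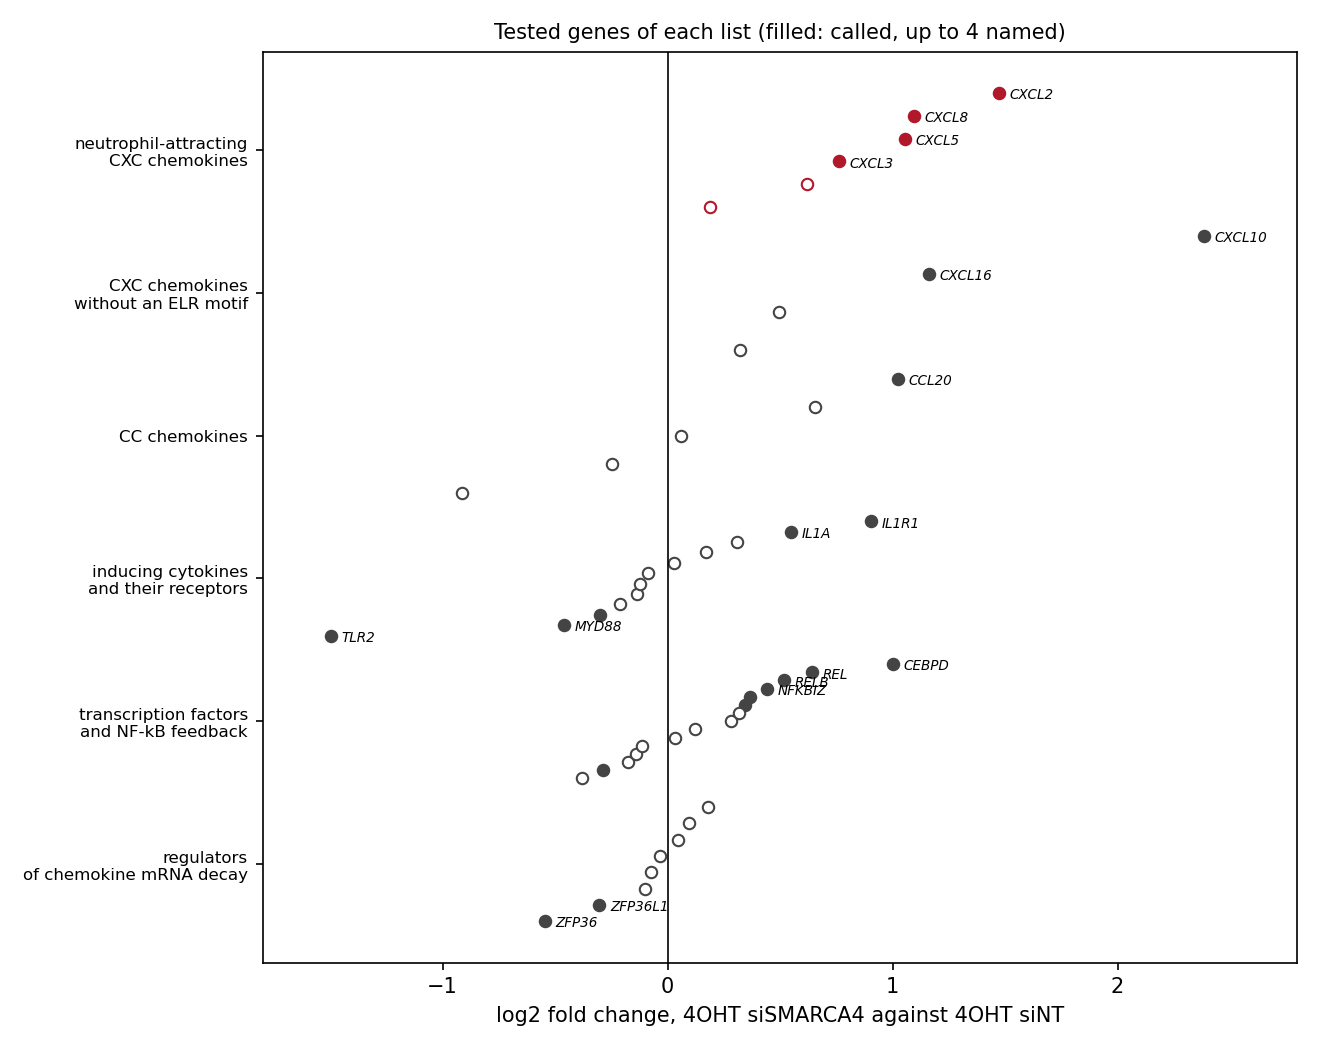
Log2 fold change of each tested gene, 4OHT siSMARCA4 against 4OHT siNT, by list; filled points passed an adjusted p of 0.05 and up to 4 of them per list are named. The 6 neutrophil-attracting chemokines lie between 0.19 and 1.47, CXCL10 at 2.38 and TLR2 at -1.50.

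The members also varied together from library to library. After each group's mean was removed, Pearson's r between pairs of members over the 17 libraries ran from 0.23 for CXCL5 and CXCL2 to 0.95 for CXCL6 and CXCL1. CXCL5 had the lowest values, of 0.57 with CXCL8 and with CXCL1 and 0.64 with CXCL3. These values pool the 3 groups, and in DMSO siNT CXCL5 had only 16 to 42 counts per library. Its log2 ratio to CXCL8 had an SD of 0.71 there, against 0.16 in 4OHT siNT and 0.22 in 4OHT siSMARCA4. The libraries share depth and the V or VM letters, and r is given as a description.

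Over all 17 libraries the genes most like the mean of the 6, each scaled to unit variance, were F2RL1 (r = 0.997), CKS1BP1 (0.995), POU2F2 (0.995), MAP3K8 (0.993) and TCIM (0.993). F2RL1 encodes a protease-activated receptor, POU2F2 an octamer-binding transcription factor and MAP3K8 a kinase upstream of MAPK signalling. CKS1BP1 is a pseudogene whose counts may be shared with its parent gene. With group means removed the leading genes were RARRES2 (0.888), XAF1 (0.863), SRPX2 (0.844), MAP3K8 (0.843) and TMC1 (0.839). MAP3K8 was the 1 gene in both lists of 5, at 0.931, 5.18 and 7.32 CPM in DMSO siNT, 4OHT siNT and 4OHT siSMARCA4.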

How the data were processed

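RNA was sequenced in 17 libraries after polyA selection with a directional kit. According to the study's methods and the submitters' processing notes, the authors trimmed reads with Cutadapt 4.7, aligned them to GRCh38 with HISAT2 2.2.1 while keeping multiple alignments, and deposited TElocal counts (estimated counts, whole numbers, with reads that match several places divided between them, strand used) of genes and of single repeat copies. Of 62754 gene identifiers, 62700 matched GENCODE 44, from which symbols, positions and exon lengths were taken. Repeat copies were summed into 1261 subfamilies. Library totals were 39109479 to 68978119, and intervals and floors cover counting error only.

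Genes and subfamilies passing filterByExpr (minimum count 10, total 15) were scaled by TMM and fitted with edgeR 4.0.16 (R 4.3.3) quasi-likelihood models with 1 term per group over all 17 libraries. P-values were adjusted by Benjamini-Hochberg over 19473 genes, and an adjusted p under 0.05 was called. CPM use the TMM-scaled library sizes, except for repeats in the window, which were divided by library totals. Ratios to CXCL8 and repeat counts were compared by exact two-sided permutation tests. DESeq2 1.42.0, other scaling, filters, subsets of libraries, a covariate for V or VM, a replicate block and leaving out each library were alternatives. Fits were tested on simulated data. Promoters are from RefSeq (GRCh38.p14).

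The members, gene lists and tests were chosen with earlier results of these data known. Genes other than members were named as up to 4 per list with the largest absolute knockdown log2 fold change among those called, the receptors and PPBP, the tested genes within 500 kb, and the 5 genes most like the members' mean. Replicates differed by more than sampling noise (chi-square per degree of freedom at least 4.33). The siRNA sequences were not analysed here.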

Additional observations from a re-analysis of the deposited data

Results flagged for a closer look

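In 4OHT siNT the library 4-2VM stood apart from the other 5 for CXCL1, at 352 CPM, and for CXCL3, at 149 CPM, by a gap of 0.677 and 0.725 of the group's range. The long noncoding RNA ENSG00000287037 was read in 1 of 5 DMSO siNT libraries, 2-1V, at 0.0349 CPM, from 2 counts. Across 39 gene and group combinations examined in this way, 3 stood apart, and chance gives about 1 in 20.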

How the results depend on the processing

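With 4OHT siNT or 4OHT siSMARCA4 against DMSO siNT all 6 members were called in each of 23 alternatives. For 4OHT siSMARCA4 against 4OHT siNT the number called, 4 of 6, was 2 with the number 4 libraries alone and otherwise 3 to 5. The fit of the number 4 libraries called 1198 of all 19909 genes it tested, that of all libraries 4703 of 19473. CXCL2 and CXCL8 were called in all 24 alternatives, CXCL5 in 23 (lost with the number 4 libraries alone, at 0.99, adjusted p = 0.124 by edgeR) and CXCL3 in 17. CXCL6 turned negative with a replicate block (-0.36), V or VM as a covariate (-0.44), VM libraries alone (-0.38), number 4 libraries alone (-0.24) and without 4OHT siSMARCA4 2-3V (-0.052), in a range of -0.052 to 0.44 when each library was left out. Of 16 same-tag pairs of libraries from different groups, 8 correlated above 0.1, with r from -0.45 to 0.53. These mixed values cannot show whether the tags pair the samples, and the labels do not say. With a replicate block on the tag, 3 members were called on knockdown, where that fit called 4444 of all 19473 genes. CXCL3 was not called, at 0.20 (adjusted p = 0.505 by edgeR). All 6 were called with 4OHT siNT and with 4OHT siSMARCA4 against DMSO siNT, where 9429 and 9150 genes were called.

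Ratios to CXCL8 changed as follows. On knockdown, VM libraries alone gave 0.29 for CXCL2 (adjusted p = 0.136), and CXCL1 gave -0.078 with number 2 and -0.94 with number 4 libraries. Leaving out each library gave CXCL5 -0.11 to 0.0084. In 4OHT siNT against DMSO siNT, VM libraries alone gave CXCL1 0.99 (adjusted p = 0.0198). Leaving out each library gave CXCL1 0.34 to 0.72, CXCL3 -0.55 to -0.24 and CXCL5 -0.14 to 0.34. The repeat counts of the window on knockdown were -0.35 with VM libraries alone (adjusted p = 0.0238) and -0.17 to 0.049 when each library was left out. The cause was not tested, except that smaller sets have fewer libraries. Depth limits CXCL6 in DMSO siNT, with 1 to 12 counts.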
